A study of Schizosaccharomyces pombe with 15 samples.

Results

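The 5 genes described here encode the core folding machinery of the mitochondrial matrix in fission yeast (Schizosaccharomyces pombe): hsp60 (SPAC12G12.04), hsp10 (SPCC550.06c), ssc1 (SPAC664.11), mdj1 (SPCC4G3.14) and mge1 (SPBC3B9.19). They were chosen by their systematic names and are 5 of the 5886 genes in the count table. CAGE (cap analysis of gene expression) reads a short tag from the capped 5′ end of each RNA and so locates transcription starts, and it was applied to wild-type cells of strain h-S 972. Of the 15 libraries, 3 came from heat-shocked cells (39 °C for 15 min), 3 from cells given 0.5 mM H2O2 for 15 min, 3 from unstressed cells in the rich medium YES, 3 from cells starved of nitrogen for 16 h in the minimal medium EMM lacking ammonium chloride, and 3 from unstressed cells in complete EMM. Apart from heat, cultures were held at 30 °C, and they were liquid cultures grown in triplicate. Cultures for the heat and H2O2 treatments are labelled YES, though the treatment text writes YEL, and they were compared with YES.

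Most mitochondrial proteins are made in the cytosol, and those bound for the matrix enter it unfolded. Ssc1, the mitochondrial Hsp70, binds unfolded proteins in the matrix, with the J-protein Mdj1 stimulating its ATPase and Mge1 exchanging its nucleotide. Hsp60 assembles into a barrel that encloses a folding protein, and Hsp10 is the lid of that barrel. These roles were worked out largely in budding yeast and in bacterial relatives of the proteins. Heat shock genes in yeasts are known targets of the factor Hsf1, which binds heat shock elements made of inverted GAA units.

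The sequence before each gene's most used start was searched for this element, and it is shown because 4 of the genes rose in heat and mge1 did not. The search covered the 250 bases before the main start for GAANNTTC or TTCNNGAA, each of which is its own reverse complement and so reads the same on both strands. A match was present before hsp60, hsp10, ssc1 and mdj1, and none was present before mge1. The main start was the one with most tags summed over all 15 libraries, heat included. In mdj1 that start held 88.5% of the tags in heat, 45.8% in YES, 34.0% in EMM and 14.6% in starvation. Another mdj1 start, 174 bp upstream, held 57.6% in EMM and 77.8% in starvation and had no match before it. So the mdj1 start searched was picked with its heat tags counted in. Of the 5875 genes with an assigned start, 991 (16.9%) had a match in the same window. The first base of the matches lay 59 and 149 bases before the start in hsp60, 62 in hsp10, 62 in mdj1 and 39 in ssc1. The distances of matches over all genes were not counted. The sequences follow, read from the ASM294v3 reference in the direction of transcription, with the matched element in capitals. The stretches for hsp60 and hsp10 also lie within the annotated neighbouring genes SPAC12G12.03 and SPCC550.05. The ssc1 and mge1 stretches are the 100 bases that end just before the start and overlap annotated noncoding RNAs (SPNCRNA.2775 and SPNCRNA.757 at ssc1, SPNCRNA.6398 at mge1), and the others are 30 bases around the match.
hsp60, chromosome I, 342138-342167, minus strand: atcaaagttctTTCTAGAAtatcaggcagt
hsp60, chromosome I, 342228-342257, minus strand: cgatatttttcTTCAAGAAgctaccaaacc
hsp10, chromosome III, 1195881-1195910, minus strand: aacttttggtaGAACTTTCcagatgatctg
mdj1, chromosome III, 445046-445075, minus strand: attctactaacTTCTAGAAactttcataag
ssc1, chromosome I, 1725598-1725697, plus strand: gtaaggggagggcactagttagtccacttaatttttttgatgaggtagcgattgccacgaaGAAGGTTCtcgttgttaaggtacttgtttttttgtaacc
mge1, chromosome II, 4022417-4022516, plus strand: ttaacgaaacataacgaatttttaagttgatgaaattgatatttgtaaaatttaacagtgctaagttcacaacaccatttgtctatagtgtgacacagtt
The hsp60 and mdj1 elements nearest the start share the 8 letters TTCTAGAA. A longer element of 3 units (GAANNTTCNNGAA or TTCNNGAANNTTC, both strands) was present before 0.528% of the 5875 genes and before none of the 5. The CCAAT box, searched on both strands, was present before hsp60, hsp10 and mdj1 and before 35.8% of all genes, and TGACGT was present before none of the 5 and before 6.42% of all. A match is a run of letters and was not tested as a binding site.

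Library totals over genes ran from 9665353 tags (YES replicate 1) to 21760682 tags (H2O2 replicate 2). Replicates of a group correlated at 0.968 to 0.994 in log2 CPM over all genes. Genes that mark each treatment were high in the libraries labelled with it: hsp104 averaged 10088 CPM (counts per 1000000 tags) in heat, 706 in H2O2 and 300.1 in YES, srx1 averaged 1141 in H2O2 and 15.8 in YES, and mei2 averaged 6280 in nitrogen starvation and 136 in EMM. CPM values use the library total scaled by its TMM factor, and are shares of a library's tags: less RNA of a gene in each cell and fewer cells that express it cannot be told apart. Because a capped RNA gives 1 tag whatever its length, levels are set side by side between genes without division by length. The first 27 bases of each main start had no other copy in the genome with up to 2 mismatches.

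In heat, hsp60, hsp10, ssc1 and mdj1 rose and mge1 fell. Changes were tested with edgeR's quasi-likelihood test over all 5886 genes in one fit of the 15 libraries, with Benjamini-Hochberg adjustment and a threshold of 0.05, and errors of log2 changes are SE. Over all genes 42.3% passed in heat against YES, 22.2% higher and 20.1% lower. All 5 members passed. For each of them the heat and YES libraries did not overlap. The share of all genes without overlap was not counted, here or in the comparisons below, for levels or for start shares. Lack of overlap therefore does not by itself set these genes apart.

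The chaperonin genes rose together. hsp60 had 1517, 1555 and 1521 CPM in the heat libraries, against 603, 645 and 665 CPM in the YES libraries. The heat libraries lay close together, all of them well above YES. The log2 change was 1.26 ± 0.12 (edgeR adjusted p = 6.65e-07), a fold of 2.40. hsp10 had 1528, 2072 and 1622 CPM in heat, against 658, 569 and 657 CPM in YES. Heat replicate 2 was the highest, and the lowest heat library still lay above every YES library. The hsp10 change was 1.47 ± 0.17 on the log2 scale (edgeR adjusted p = 4.92e-06), a fold of 2.77. The count of hsp60 tags over hsp10 tags, for the barrel and its lid, averaged 0.894 ± 0.127 in heat and 1.02 ± 0.108 in YES (SD, n = 3 each), with overlapping libraries (exact two-sided permutation test, p = 0.4).

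Within the Hsp70 cycle the genes moved by unequal amounts. ssc1, the most abundant of the 5, had 3296, 3251 and 3824 CPM in heat, against 2107, 2083 and 2131 CPM in YES. All heat libraries were higher, and the 3 YES libraries hardly differed among themselves. The rise was 0.71 ± 0.14 on the log2 scale (edgeR adjusted p = 6.24e-04). mdj1, the least abundant, had 93.0, 82.9 and 63.0 CPM in heat, against 14.5, 14.7 and 15.5 CPM in YES. Even the lowest heat library stood far above the YES libraries. This rise of 2.41 ± 0.23 on the log2 scale (edgeR adjusted p = 6.14e-07), a fold of 5.33, was the largest of the 5.

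mge1, the exchange factor, had 218, 213 and 259 CPM in heat, against 353, 301 and 263 CPM in YES. The highest heat library lay just under the lowest YES library. Its log2 change was −0.41 ± 0.14 (edgeR adjusted p = 0.0261), and the call was lost when YES replicate 1, YES replicate 2, heat replicate 1 or heat replicate 2 was left out, with an adjusted p of up to 0.133. ssc1 tags per mge1 tag averaged 15.1 ± 0.255 in heat and 7.00 ± 1.07 in YES, and mge1 tags per mdj1 tag averaged 3.004 ± 0.960 in heat and 20.6 ± 3.65 in YES (SD, n = 3 each). Neither pair of ranges overlapped (exact two-sided permutation test, p = 0.1, the smallest that 3 against 3 allows). Over the 15 tests of such ratios the adjusted p was 0.167 for both.

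**Figure D1:**
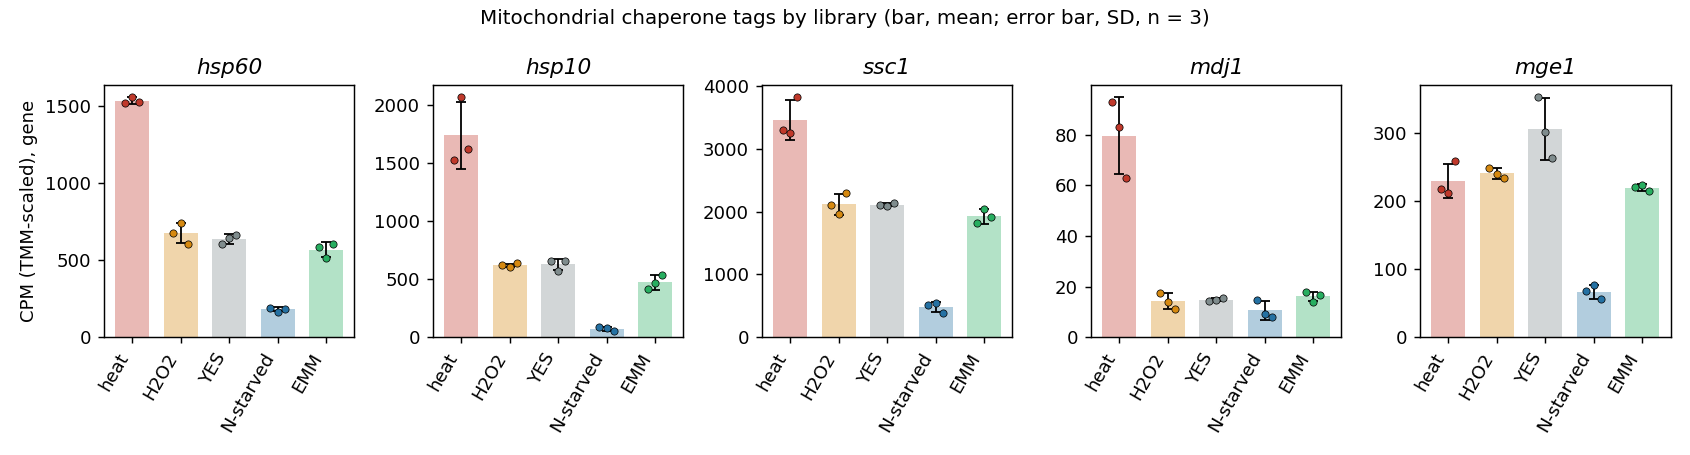
Level of each of the 5 genes in CPM (vertical axis, from 0, a separate scale for each gene) in each of the 15 libraries, by group along the horizontal axis. Points are libraries, bars are means and error bars are SD (n = 3); heat stands above the other groups for all genes but mge1, and nitrogen starvation has the lowest mean for all 5.

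mdj1 RNAs also began elsewhere in heat. The gene lies on the minus strand of chromosome III (442924-445176) and has 4 start clusters, that is, groups of neighbouring start positions counted by the authors as units. Those that held most of its tags had their most used positions at 445176, the annotated 5′ end, and at 445002, which is 174 bp further downstream in the annotated 5′ UTR. Transcripts from the upstream start carry 420 nt before the start codon and those from the downstream start 246 nt. Each start is given as 21 bases with the base before the start and the start base in capitals.
mdj1 upstream start, chromosome III, 445166-445186, minus strand: cagttccatCAcgctaccaca
mdj1 downstream start, chromosome III, 444992-445012, minus strand: ttactattgCAttggcaaggt
Both have a CA step at the start. The element TTCTAGAA printed above begins 62 bases before the downstream start, and so lies between the starts. The 250 bases before the upstream start held no match to GAANNTTC, TTCNNGAA, CCAAT or TGACGT. On the plus strand, a start cluster of SPCC4G3.13c (445059-445946, peak at 445239) overlaps the stretch printed for mdj1. That cluster averaged 371 ± 31.7 CPM in heat and 118 ± 9.24 CPM in YES (SD, n = 3 each). Its log2 change was 1.66 ± 0.13 (edgeR adjusted p = 1.23e-08). Whether the element acts on either gene was not tested.

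The downstream start gave 90.2%, 89.7% and 85.5% of the mdj1 tags in the heat libraries, against 42.9%, 47.3% and 47.3% in the YES libraries. The upstream start gave 3.33%, 2.36% and 3.76% in heat, against 48.4%, 43.6% and 40.9% in YES. Both starts were used about equally in YES, and nearly all mdj1 tags came from the downstream one in heat. In level, the downstream start averaged 69.5 ± 15.3 CPM in heat and 6.76 ± 0.549 CPM in YES (SD, n = 3 each), a change of 3.35 on the log2 scale ± 0.26 (edgeR adjusted p = 1.29e-08, tested over 13003 clusters, of which 33.6% passed). The upstream start averaged 2.43 ± 0.588 CPM in heat and 6.52 ± 0.377 CPM in YES, which is −1.43 ± 0.26 on the log2 scale (edgeR adjusted p = 2.65e-04). Thus 1 start rose and the other fell, which the count summed over the gene does not show. The share of tags per start was tested with edgeR's diffSpliceDGE and Simes' method in 1693 genes with at least 2 starts that each held 10% of the gene's tags in some group, of which 31.7% passed in heat against YES. mdj1 passed (adjusted p = 1.49e-11), and it was the only one of the 5 genes with enough starts to enter this test.

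The mdj1 starts also shifted in nitrogen starvation, in the other direction. The downstream start gave 13.3%, 10.0% and 20.5% of the tags in the starved libraries, against 39.5%, 30.0% and 32.3% in the EMM libraries. The upstream start gave 81.7%, 80.6% and 71.2% in starvation, against 51.2%, 61.7% and 59.9% in EMM. The libraries did not overlap for either share, and the usage test passed (edgeR adjusted p = 4.98e-04, against 59.4% of the tested genes). In level the downstream start fell to 1.51 ± 0.532 CPM in starvation, against 5.70 ± 1.38 CPM in EMM, which is −1.88 ± 0.28 on the log2 scale (edgeR adjusted p = 1.58e-05, where 66.9% of clusters passed). The upstream start, at 8.42 ± 3.34 CPM in starvation and 9.54 ± 0.689 CPM in EMM, did not pass (−0.18 on the log2 scale, edgeR adjusted p = 0.495). Its direction was not stable, with a log2 change of −0.55 (edgeR adjusted p = 0.0245) without starved replicate 1, 0.0498 without starved replicate 3 and 0.30 under scaling by library totals. After H2O2 the shares were 46.6 ± 5.05% downstream and 41.7 ± 6.66% upstream, against 45.8 ± 2.56% and 44.3 ± 3.78% in YES, and mdj1 did not pass (adjusted p = 1, against 12.0% of the tested genes). In EMM against YES it did not pass (adjusted p = 0.482, against 18.4% of the tested genes).

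The other mdj1 clusters were minor. The one whose peak lies 19 bases before the start codon held 27, 40 and 42 tags in the heat libraries, against 0, 1 and 2 in the YES libraries, where each count lies at or under a floor of 3 tags. The other lies within the coding region and averaged 3.60 ± 0.217 CPM in heat and 1.39 ± 0.258 CPM in YES (SD, n = 3 each). In shares of mdj1 tags these clusters reached at most 12.1%.

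**Figure D2:**
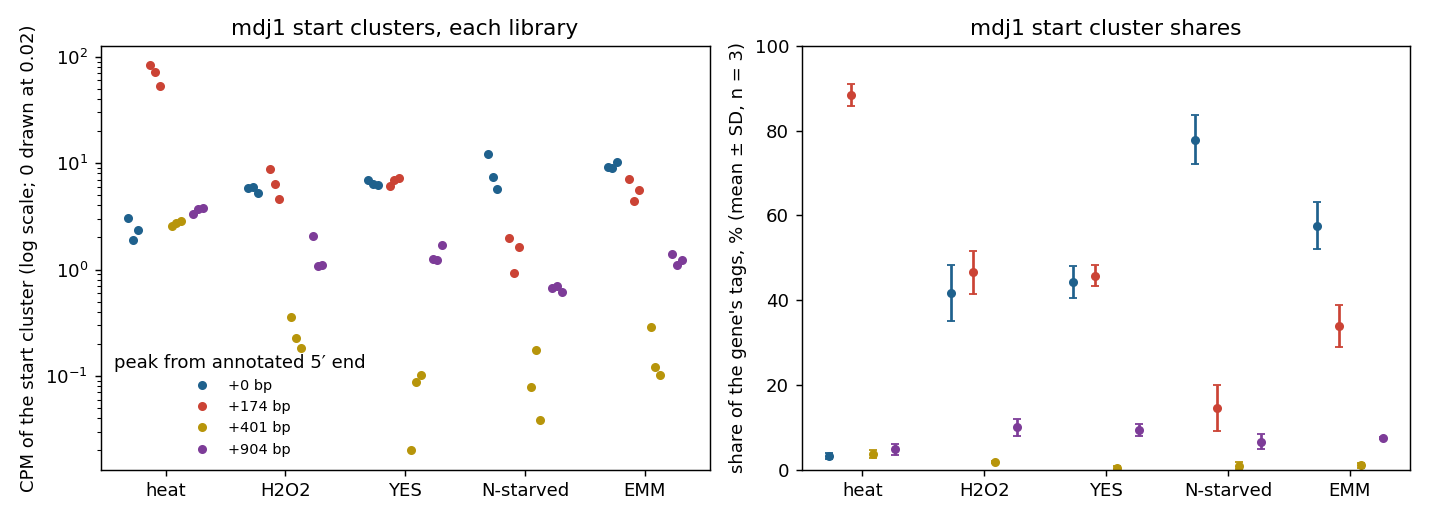
The 4 start clusters of mdj1, coloured by the distance of their peak from the annotated 5′ end in bp. The left plot gives the CPM of each library on a log axis (a library with 0 tags is drawn at 0.02) and the right plot the share of the gene's tags in percent (mean ± SD, n = 3); the cluster at 174 bp takes 88.5 ± 2.59% of the tags in heat, against 45.8 ± 2.56% in YES.

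The remaining 4 genes each used essentially a single cluster. hsp60 (chromosome I, 339766-342097, minus strand) and mge1 (chromosome II, 4022517-4023772, plus strand) had 1 cluster each, with the peak exactly at the annotated 5′ end and with 242 and 30 nt before the start codon. hsp10 (chromosome III, 1194996-1195837, minus strand) had its main peak at the annotated 5′ end, and this cluster held 99.8% of its tags. ssc1 (chromosome I, 1725752-1728189, plus strand) had its main peak 54 bp upstream of the annotated 5′ end. The main clusters of hsp60 and ssc1 were wide, at 1950 and 1877 bp, against a median of 181 bp over all clusters, and so ran into the coding region.

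An RNA on the opposite strand, SPNCRNA.757, starts 40 bp downstream of the ssc1 start and had 205, 466 and 341 tags in the heat libraries, against 1, 0 and 4 in the YES libraries. No fold is given, because YES replicates 1 and 2 lie under the floor of 3 tags. ssc1 itself rose in these same libraries, and its tags are counted by strand.

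H2O2 left the 5 genes without a call. In H2O2 against YES, 0 of the 5 passed in edgeR's quasi-likelihood test, where 20.0% of all genes passed. At an unadjusted p under 0.05 there was 1 member, mge1, which was lower, beside 847 lower and 944 higher of all 5886 genes. DESeq2 called 0 members and limma on the authors' log2 values called 1, and the shares of all genes by these methods were not counted. hsp60 had 678, 738 and 605 CPM after H2O2, against 603, 645 and 665 CPM in YES, and the groups overlapped. The hsp60 change was 0.08 on the log2 scale, with a 95% interval of −0.17 to 0.33. The interval was −0.37 to 0.34 for hsp10, −0.28 to 0.30 for ssc1 and −0.54 to 0.42 for mdj1. mge1 had 249, 240 and 233 CPM after H2O2, below all 3 YES libraries, and its log2 change was −0.34 ± 0.14 (edgeR adjusted p = 0.101).

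Heat and H2O2 were then set against each other directly. In heat against H2O2, 27.7% of all genes passed, 15.7% as higher, and hsp60, hsp10, ssc1 and mdj1 were higher in every heat library. Their log2 differences were 1.18 ± 0.12 for hsp60, 1.49 ± 0.17 for hsp10, 0.71 ± 0.14 for ssc1 and 2.48 ± 0.23 for mdj1, with the largest edgeR adjusted p being 0.00111, for ssc1. mge1 did not pass (log2 difference −0.07, 95% interval −0.36 to 0.23, edgeR adjusted p = 0.763). The mdj1 starts differed here as well (usage adjusted p = 1.51e-11, against 30.3% of the tested genes).

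In nitrogen starvation hsp60, hsp10, ssc1 and mge1 fell far below their EMM levels, and mdj1, the least abundant, fell less. All 5 passed as lower, where 68.6% of all genes passed, 32.9% as lower and 35.7% as higher. hsp10 had 85.0, 78.5 and 55.8 CPM in the starved libraries, against 416, 466 and 538 CPM in the EMM libraries. The starved libraries were far below EMM with no overlap, and the log2 change was −2.70 ± 0.18 (edgeR adjusted p = 7.16e-09). hsp60 had 192, 167 and 184 CPM in starvation, against 587, 513 and 605 CPM in EMM. Its log2 change of −1.65 ± 0.12 (edgeR adjusted p = 2.29e-08) was smaller than that of its lid. hsp60 tags per hsp10 tag averaged 2.56 ± 0.644 in starvation and 1.21 ± 0.173 in EMM (SD, n = 3 each), without overlap (exact two-sided permutation test, p = 0.1, the smallest possible). Adjusted over the 15 tests of such ratios, this permutation p was 0.167.

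The Hsp70 genes fell too. ssc1 had 518, 539 and 394 CPM in starvation, against 1815, 2048 and 1911 CPM in EMM, a log2 change of −1.99 ± 0.14 (edgeR adjusted p = 1.52e-08). mge1 had 68.4, 76.4 and 56.1 CPM in starvation, against 221, 224 and 215 CPM in EMM, a log2 change of −1.72 ± 0.14 (edgeR adjusted p = 7.23e-08). In both genes every starved library was below every EMM library. mdj1 had 14.8, 9.25 and 7.88 CPM in starvation, against 17.7, 14.0 and 16.8 CPM in EMM. Starved replicate 1 overlapped the EMM libraries. The change was −0.60 ± 0.22 on the log2 scale (edgeR adjusted p = 0.0256), but it was −0.15 (edgeR adjusted p = 0.583) when libraries were scaled by their totals alone. The mdj1 call was also lost without starved replicate 2 or 3 or EMM replicate 1 or 3, where its log2 change ran to −0.39. Scaling by totals moved the median log2 change of all genes in this comparison to 0.49, and the other 4 genes passed as lower under that scaling too. The size of the fall was smaller in the authors' log2 normalized values: tested with limma, it was −0.73 for hsp60, −0.83 for ssc1, −1.21 for mge1 and −1.85 for hsp10, all passing.

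Between the unstressed media the differences were small. In EMM against YES, where 13.2% of all genes passed and 7.24% were lower, mge1 was the only member called, at −0.47 ± 0.14 on the log2 scale (edgeR adjusted p = 0.0339). The call was lost when any EMM library, YES replicate 1 or YES replicate 2 was left out. hsp10 had a log2 change of −0.41 ± 0.17 and was lower in all 3 EMM libraries, but did not pass (edgeR adjusted p = 0.136). Across the 5 groups the order of mean levels was thus heat highest and starvation lowest for hsp60, hsp10, ssc1 and mdj1, with H2O2, YES and EMM between, where neither H2O2 nor EMM passed against YES. For mge1, YES had the highest mean (306 ± 45.3 CPM), then H2O2 (241 ± 7.78 CPM), heat (230 ± 25.1 CPM) and EMM (220 ± 4.61 CPM), with starvation lowest at 67.0 ± 10.2 CPM (SD, n = 3 each).

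**Figure D3:**
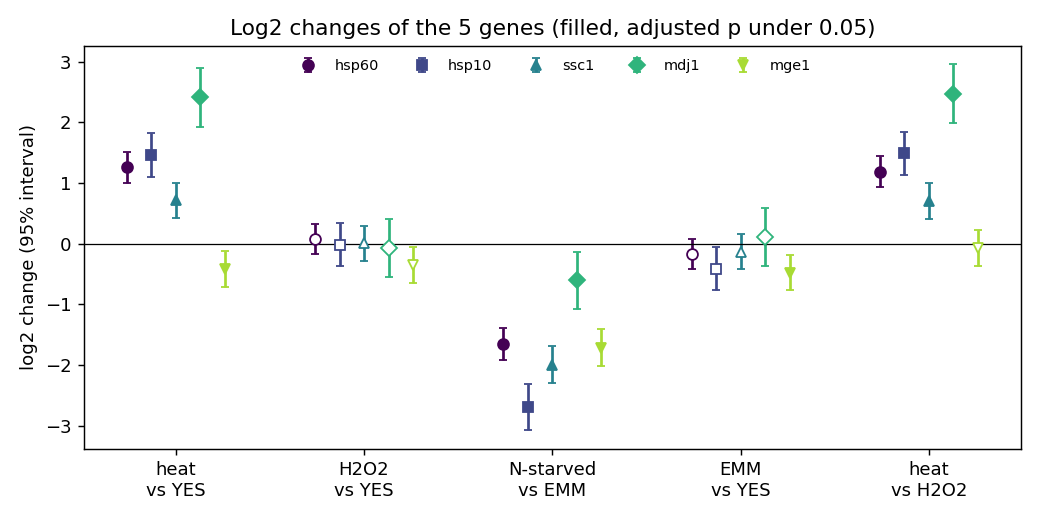
Log2 change of each gene (vertical axis, with its 95% interval) in each comparison (horizontal axis), filled where the edgeR adjusted p was under 0.05. mdj1 has the largest log2 change in heat against YES (2.41) and hsp10 the lowest in starvation against EMM (−2.70).

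Other genes of mitochondrial protein quality control and of the cytosolic chaperone system were read from lists written from textbook knowledge, of which 70 of 76 symbols, the 5 members included, matched a gene. Of 11 mitochondrial proteostasis genes (proteases, the disaggregase Hsp78, prohibitins and assembly factors), 2 were higher and 0 lower in heat. Over all genes 22.2% were higher and 20.1% lower. At an unadjusted p under 0.05 in edgeR 0 of the 11 were lower too, beside 1425 of all 5886 genes. The median log2 change was 0.37, against −0.03 over all genes. hsp78, a mitochondrial relative of Hsp104 that works with Hsp70 on aggregated proteins, had 875 ± 56.8 CPM in heat and 39.8 ± 3.41 CPM in YES (SD, n = 3 each), a log2 change of 4.46 ± 0.14 (edgeR adjusted p = 1.70e-11). yme1, an inner-membrane protease, rose by 0.74 ± 0.14 (edgeR adjusted p = 6.37e-04). Of the 30 import genes 5 were higher and 5 lower, beside the same 22.2% and 20.1% over all genes, with a median of −0.14. The largest changes were decreases, in oxa102, an inner-membrane insertase (−1.41 ± 0.26), tim50 (−0.76 ± 0.17) and tim22 (−0.71 ± 0.17), both subunits of inner-membrane translocases. The other lower genes were tim17 and tom40, and the higher ones were erv1, mas1, oct1, tim21 and tom22, all 7 named after their values were seen. Over single left-out libraries the count of higher import genes ran down to 1, and under library totals it was 0. The share of all genes called in those fits was not counted.

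Of the 8 subunits of CCT, the cytosolic counterpart of the Hsp60 barrel, 0 passed in edgeR's test in heat, beside 42.3% of all genes. At an unadjusted p under 0.05, 1 was lower, beside 1425 of all 5886 genes, and the median log2 change was −0.12. Among cytosolic and endoplasmic reticulum chaperones 15 of 16 were higher and 1 lower, with a median of 1.84. The largest changes were in hsp16, a small heat shock protein (6.12 ± 0.22), ssa1, a cytosolic Hsp70 (5.56 ± 0.26), and hsp104, the cytosolic disaggregase (5.07 ± 0.27). Of the 5 mitochondrial genes, mdj1 alone exceeded that list's median. The 1 lower gene was sks2, a ribosome-associated Hsp70, at −0.80 with overlapping libraries (edgeR adjusted p = 0.0236), named after its value was seen.

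In nitrogen starvation 5 of 11 proteostasis genes, 20 of 30 import genes, 8 of 8 CCT genes and 14 of 16 cytosolic and endoplasmic reticulum chaperones were lower than in EMM, beside 32.9% of all genes. In the last list ssa1 was higher (log2 change 0.73 ± 0.22, edgeR adjusted p = 0.00818; named after its value was seen). Scaled by library totals, 1 proteostasis gene, 11 import genes and 9 cytosolic and endoplasmic reticulum chaperones were lower. The 8 CCT genes were still lower, and 2 proteostasis and 7 import genes were higher. The 32.9% is for TMM scaling, and the share of all genes called under library totals was not counted. With TMM scaling the median log2 changes were −0.39 for proteostasis, −0.68 for import, −1.29 for CCT and −1.03 for cytosolic and endoplasmic reticulum chaperones. The median was 0.04 over all genes and −1.72 over the 5 mitochondrial chaperones. hsp78, which rose in heat, was lower here by 0.70 on the log2 scale with TMM scaling.

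**Figure D4:**
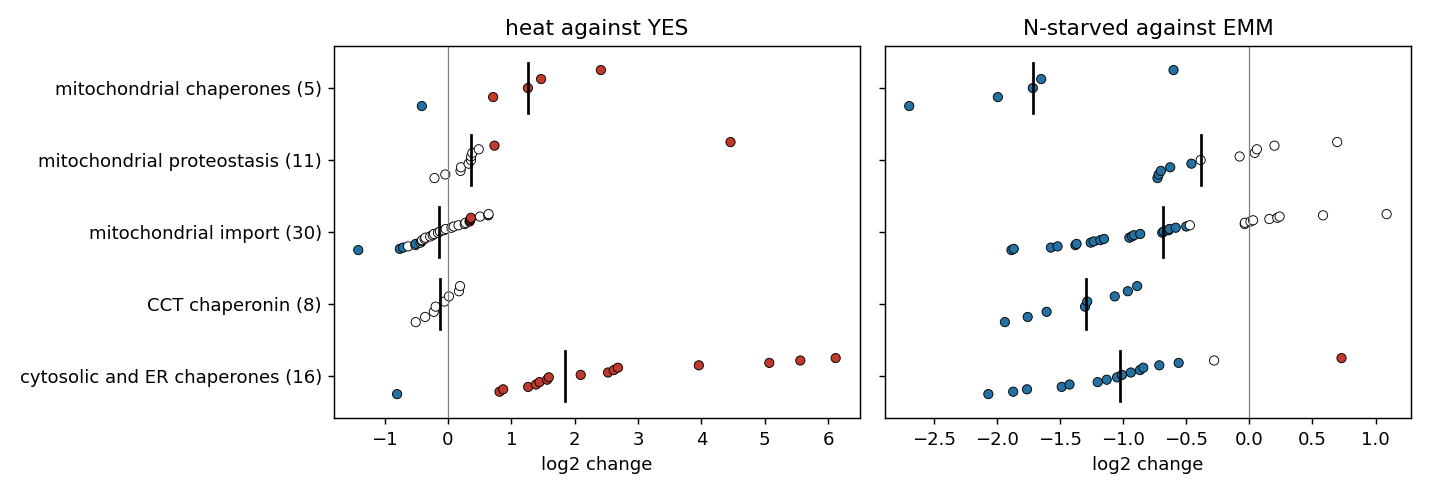
Log2 change of each gene (horizontal axis) in heat against YES (left) and starvation against EMM (right), by list with the number of genes in brackets. Red points passed as higher, blue as lower and white did not pass, and the vertical bar is the list's median (1.26 in heat and −1.72 in starvation for the mitochondrial chaperones).

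Genes outside the 5 were ranked by correlation of log2 CPM with the members' mean centred profile, over the 15 libraries. The 4306 genes of at least 10 CPM were compared, and the 5 with the highest r are named. They were pro1, of proline synthesis (r = 0.992), pss1, a cytosolic Hsp70 relative (0.988), wis2, a cyclophilin (0.985), mlo3, an RNA export factor (0.983), and mal3, a microtubule end-binding protein (0.983). The points share groups and libraries, so r describes how the groups line up. Between members r ran from 0.352 (mdj1 and mge1) to 0.985 (hsp10 and ssc1), so the mean profile does not describe every member. pss1 averaged 2245 CPM in heat, 1144 in H2O2, 1226 in YES, 284 in starvation and 1038 in EMM.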

How the data were processed

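Per gene and per start cluster, the authors deposited raw tag counts, with log2 normalized values per gene (used only as an alternative, with limma) and a cluster list whose CPM column is the authors' mean over libraries; the units were read from the values. CASAVA 1.6, Bowtie 0.12.7 and the build ASM294v2 are named in the submitters' processing notes; clustering and normalization are not given in the sources used here. Peaks were matched to ASM294v3: a pyrimidine-purine step lay at 85.1% of 13003 peaks, against 4.71% and 2.84% when peaks were moved by 1 base either way, and 0 clusters ran past a chromosome end, so sequence was read from that build. A gene's clusters were the run of clusters whose counts summed to its count in all libraries (5875 genes).

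Counts were tested with edgeR 4.0.16 in R 4.3.3 (TMM scaling, filterByExpr, robust quasi-likelihood fit of 15 libraries); the filter removed no gene. SE is the log2 change over the square root of F. Alternatives used DESeq2 1.42.0 and limma 3.58.1. The tests were tried on simulated data. Replicates are triplicate cultures per the labels. The edgeR p-values set each change against a spread between replicates that was estimated over all 5 groups and drawn toward that of other genes. Tag totals ranged from 9665353 to 21760682, and 3 tags corresponded to 0.115 to 0.346 CPM; floors cover counting error only, since the tags carry no molecular identifiers.

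Members and lists were chosen with earlier results of these data known. pcp1, imp1 and imp2 were taken off the lists after the annotation showed other proteins under those symbols, before any list was tested here. List genes named are the 3 with the largest change in heat past the threshold without overlap, and the 5 most correlated genes have a mean of at least 10 CPM. The motif search and ratios were added to the planned tests, and the mdj1 starts were singled out after their counts were seen.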

Additional observations from a re-analysis of the deposited data

Results flagged for a closer look

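Both results given here come from start clusters that the authors' counts assign to no gene, at the loci of hsp60 and ssc1. They were picked because every stressed library lay above every control library and the edgeR adjusted p was under 0.05. Their lack of overlap and their calls thus follow from the choice. Over all clusters, 33.6% passed in heat against YES and 66.9% in starvation against EMM, in either direction. On the plus strand 246 bp upstream of the hsp60 start, a cluster with its peak at 342343 on chromosome I had 92, 80 and 164 tags in the nitrogen-starved libraries, against 6, 11 and 24 in the EMM libraries. Its log2 change was 2.58 ± 0.33 (edgeR adjusted p = 1.89e-06), while hsp60 fell in the same libraries. On the minus strand within ssc1, a cluster with its peak at 1726958 on chromosome I had 48, 130 and 26 tags in the heat libraries, against 13, 20 and 20 in the YES libraries. It rose by 1.87 ± 0.47 in log2 terms (edgeR adjusted p = 0.00524). The heat libraries varied widely among themselves. Clusters that fell were not picked. In starvation the same ssc1 cluster had 6, 5 and 3 tags, against 23, 20 and 38 in EMM. Its log2 change there was −2.93 ± 0.61 (edgeR adjusted p = 5.32e-04). A cluster of no gene downstream of hsp60 (minus strand, peak at 339001) had 3, 1 and 1 tags in starvation, at or under the floor, against 30, 30 and 30 in EMM.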

How the results depend on the processing

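The calls of hsp60, hsp10 and ssc1 in heat and in starvation held in each of their 14 alternatives, 6 of which leave out a library. So did those of mdj1 in heat and of mge1 in starvation. The alternative without the low-count filter equals the main fit, because the filter removed no gene. For hsp60 and mge1 the main-cluster alternative uses the same counts as the gene. The calls held but the sizes did not: with limma on the authors' log2 values the starvation changes were −0.73 for hsp60, −0.83 for ssc1, −1.21 for mge1 and −1.85 for hsp10, against −1.65, −1.99, −1.72 and −2.70 in edgeR. Directions are relative to TMM scaling: library totals alone moved the median log2 change of all genes to 0.49 in starvation, −0.21 in heat against YES and −0.20 in heat against H2O2. Under library totals mdj1 in starvation was −0.15, its upstream start 0.30, and in starvation 2 proteostasis genes were higher and 1 lower, 7 import genes higher and 11 lower, and 9 cytosolic and endoplasmic reticulum chaperones lower. In heat that scaling gave 0 higher import genes and 2 lower CCT genes. Shares of all genes called under library totals were not counted. With the 6 libraries of starvation and EMM alone mdj1 was −0.61 (adjusted p = 0.0540). Correlations between libraries of the same replicate number ran from −0.22 to 0.31 over the 5 comparisons. They were all positive in starvation against EMM (0.0676, 0.307 and 0.116) and all negative in heat against YES (−0.120, −0.205 and −0.158). Whether replicate numbers pair the samples was not settled. A block on the number gave −0.47 for mge1 in EMM against YES (edgeR adjusted p = 0.0526), leaving 0 members called there. It changed no other call of the 5 genes. The main cluster alone gave −0.41 for mge1 (adjusted p = 0.0673), also 0 called, and −0.26 for mdj1 in EMM against YES. In H2O2 against YES, limma on the authors' log2 values called 1 member, mge1, at −0.32 (adjusted p = 0.0378). There hsp10 turned to 0.0316 with limma and 0.00570 with the 6 libraries alone, and ssc1 to −0.00183 with DESeq2 and with relative log expression scaling and −0.0134 with the main cluster, all near 0. The cause of these moves was not tested.

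With single libraries left out, mdj1 in starvation ran from −0.90 to −0.39, and mge1 from −0.51 to −0.29 in heat against YES and from −0.56 to −0.36 in EMM against YES, with 0 to 1 members called in the last. In H2O2 against YES, hsp10 ran from −0.0836 to 0.0470, ssc1 from −0.0544 to 0.0610 and mdj1 from −0.232 to 0.0859. These fits were added after the data were seen for the mdj1 starts: the upstream start ran from −0.55 to 0.0498 in starvation, and the downstream minus upstream change from −0.0928 to 0.285 in H2O2 against YES. The starts' calls in heat, and the usage calls in heat and starvation, held in every such fit. Counts ran from 0 to 1 for higher proteostasis genes and 0 to 2 for higher import genes in starvation. In heat they ran from 1 to 5 for higher import genes, 0 to 1 for lower CCT genes and 0 to 1 for lower cytosolic and endoplasmic reticulum chaperones (sks2).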

Other observations

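A minor cluster counted by the authors with hsp10, 754 bp upstream of its annotated 5′ end, moved against the main hsp10 start in nitrogen starvation. Its peak also lies in the annotated noncoding RNA SPNCRNA.7258 on the same strand, and whether its tags come from that RNA or from hsp10 was not tested. It held 56, 43 and 58 tags in the starved libraries, against 3, 2 and 7 in the EMM libraries, and 3.25 ± 0.710% of the tags counted for hsp10 in starvation, against 0.0471 ± 0.0202% in EMM (SD, n = 3 each). Its log2 change was 3.23 ± 0.40 (edgeR adjusted p = 1.30e-06), and that of the main start was −2.78 ± 0.18 (edgeR adjusted p = 4.10e-10). EMM replicates 1 and 2 lie at or under the floor of 3 tags, so the size of the first change is uncertain.

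The 5 genes together held 0.587% to 0.628% of all tags in the heat libraries, 0.347% to 0.380% after H2O2 and 0.335% to 0.381% in YES. They held 0.0928% to 0.114% in starvation, against 0.284% to 0.319% in EMM.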
